A study of Mus musculus with 6 samples.

Results

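Read counts were examined for 9 genes, the subunit genes of the cytokines IL-12 and IL-23 and genes that induce or carry out the IL-17 program, out of 23491 gene symbols measured in cerebellar microglia. They were chosen by symbol: Il12a, Il12b, Il23a, Il12rb1, Rora, Il6, Tgfb1, Ahr and Batf, and all 9 had a row of counts. Of them, 7 were among the 14727 genes tested after a filter on low counts, and Il12a and Il23a were under the filter. The study's question, from its title, concerns IL-17A made by cerebellar microglia in an autism-related model. The poly(I:C) group had 3 libraries from mice injected intraperitoneally with poly(I:C), a synthetic double-stranded RNA that mimics viral infection, and the saline group had 3 libraries from mice labelled saline in the treatment field and sham in the titles. Both groups carry the Fmr1 knock out, a model of fragile X syndrome, and no wild-type group was analysed here. The sources used here do not give age, sex, dose or time after injection. The labels do not say whether libraries of a group came from separate animals, so p-values measure the spread between these libraries, which may be technical.

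IL-12 and IL-23 are secreted heterodimers that share the p40 chain encoded by Il12b. The p35 chain encoded by Il12a completes IL-12, and the p19 chain encoded by Il23a completes IL-23. Both bind a receptor that contains the IL-12 receptor beta 1 chain encoded by Il12rb1. In T cells, IL-6 and TGF-beta together start the IL-17 program, IL-23 sustains it, and the transcription factors encoded by Rora, Ahr and Batf take part in it. In the brain, microglia are both a source of TGF-beta and dependent on it for their identity, and activated myeloid cells are the usual source of IL-12, IL-23 and IL-6.

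Libraries held between 33710545 and 34899835 counts, and 3 counts corresponded to between 0.0852 and 0.0912 CPM (read counts scaled to a common library size, here by the TMM method). The 9 measured markers of microglia, such as P2ry12, Tmem119 and Cx3cr1, summed to between 29203 and 40210 CPM in poly(I:C) libraries and between 37121 and 42760 CPM in saline libraries. Saline replicate 1 stood apart in 10 neutrophil markers, whose sum was 2133, 449 and 533 CPM in the poly(I:C) libraries and 19318, 2292 and 2231 CPM in saline replicates 1, 2 and 3. Every poly(I:C) library was below every saline library in this sum, so the difference was not in saline replicate 1 alone. Poly(I:C) replicate 1 stood apart in 9 choroid plexus markers, whose sum was 19429, 7666 and 9325 CPM in the poly(I:C) libraries and 4054, 8450 and 3959 CPM in the saline libraries. The defining T-cell genes Cd3d, Cd3e and Cd3g were at or below 0.18 CPM in every library. All 9 measured T-cell markers summed to between 101.5 and 103.1 CPM in poly(I:C) libraries and between 78.7 and 93.8 CPM in saline libraries. Most of that sum was Il7r, at 87.8, 96.0 and 93.4 CPM in poly(I:C) libraries and 68.9, 69.7 and 81.1 CPM in saline libraries. Reads over Fmr1 numbered between 1484 and 2205 in poly(I:C) libraries and between 1243 and 1375 in saline libraries, and without the position of the disruption they check neither genotype nor labels. In bulk libraries of this kind, fewer cells of a type and less RNA per cell cannot be told apart.

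**Figure D1:**
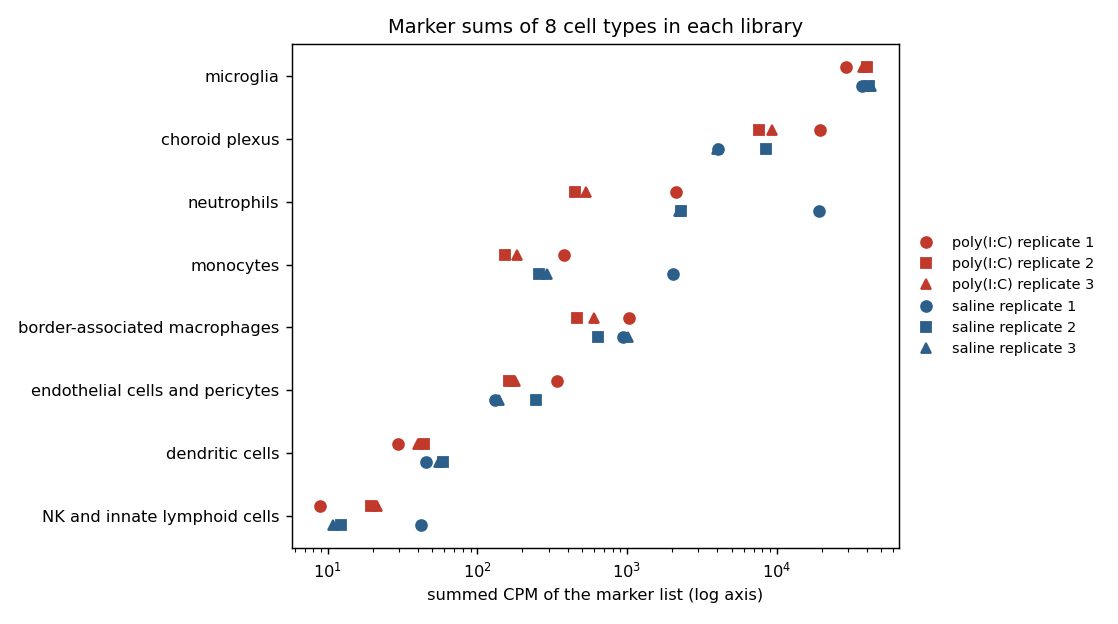
Summed CPM of marker lists for 8 cell types (log axis) in each library, with poly(I:C) libraries above saline libraries and symbols for replicates. Saline replicate 1 has the highest neutrophil sum, 19318 CPM, and poly(I:C) replicate 1 the highest choroid plexus sum, 19429 CPM.

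Promoter sequences from RefSeq (GRCm38.p6) were given for 6 of the 9 genes. Those of Il12b and Il6 are shown because, of the 9, these are the tested cytokine genes with the largest differences below. Both are also well-known targets of NF-kB and AP-1 family factors in macrophages. Each is the stretch of 250 bases before the annotated start site on the plus strand, chr11:44399813-44400062 for Il12b and chr5:30012864-30013113 for Il6. Capitals mark matches to any of 5 elements searched on both strands.
Il12b: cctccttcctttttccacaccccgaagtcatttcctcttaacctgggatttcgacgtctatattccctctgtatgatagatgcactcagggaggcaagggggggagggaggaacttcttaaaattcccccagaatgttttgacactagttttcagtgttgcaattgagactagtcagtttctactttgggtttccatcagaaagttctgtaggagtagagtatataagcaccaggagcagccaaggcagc
Il6: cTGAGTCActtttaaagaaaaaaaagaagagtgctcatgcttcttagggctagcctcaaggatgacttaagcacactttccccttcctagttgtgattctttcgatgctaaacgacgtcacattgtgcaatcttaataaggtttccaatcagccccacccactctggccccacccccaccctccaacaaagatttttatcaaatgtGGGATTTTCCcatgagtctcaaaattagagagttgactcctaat
The elements were the interferon-stimulated response element, the NF-kB element, the AP-1 element TGANTCA, the xenobiotic response element GCGTG bound by the Ahr protein, and the ROR element AGGTCA, where N is any base. They occurred in 2.98%, 1.41%, 6.75%, 28.2% and 14.0% of 32851 promoter windows of the same length. The Il6 window held 1 NF-kB match, at positions −44 to −35 from the start site, and 1 AP-1 match, at positions −249 to −243. The Il12b window held no match, which says only that these letters are not in this window. Binding sites with other letters were not searched, so a site for NF-kB or another factor may still lie in it. No match of the interferon-stimulated or ROR element was found in any member's window, and xenobiotic response matches were found once each for Il12a (in 1 of its promoters), Tgfb1 and Rora.

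None of the 7 tested genes was called different between poly(I:C) and saline. By the quasi-likelihood test of edgeR, adjusted over all tested genes (Benjamini-Hochberg), 0 of 7 passed an adjusted p of 0.05, against 0.957% of all tested genes, of which 0.883% were higher and 0.0747% lower with poly(I:C). At an unadjusted p under 0.05 there were 2 of the 7, Il12b and Tgfb1, against 21.3% of all genes. The same 2 genes were the ones whose library values did not overlap between groups, a separation seen in 28.4% of all tested genes (14.0% higher and 14.3% lower). DESeq2 called 1 of 9 members, Il12b, against 4.54% of all 22153 genes with a count (2.51% higher and 2.02% lower). Both totals include genes that DESeq2 gave no adjusted p and that could not be called, Il12a and Il23a among them. With limma-voom and sample quality weights Il12b, Il6 and Tgfb1 were called, against 19.5% of all genes (8.61% higher and 10.9% lower). With the replicate number as a block 0 members were called, against 1.77% of all genes (1.16% higher and 0.604% lower). The median absolute log2 difference of the 7 was 0.46, with a median standard error of 0.43, against 0.25 and 0.17 over all tested genes.

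**Figure D2:**
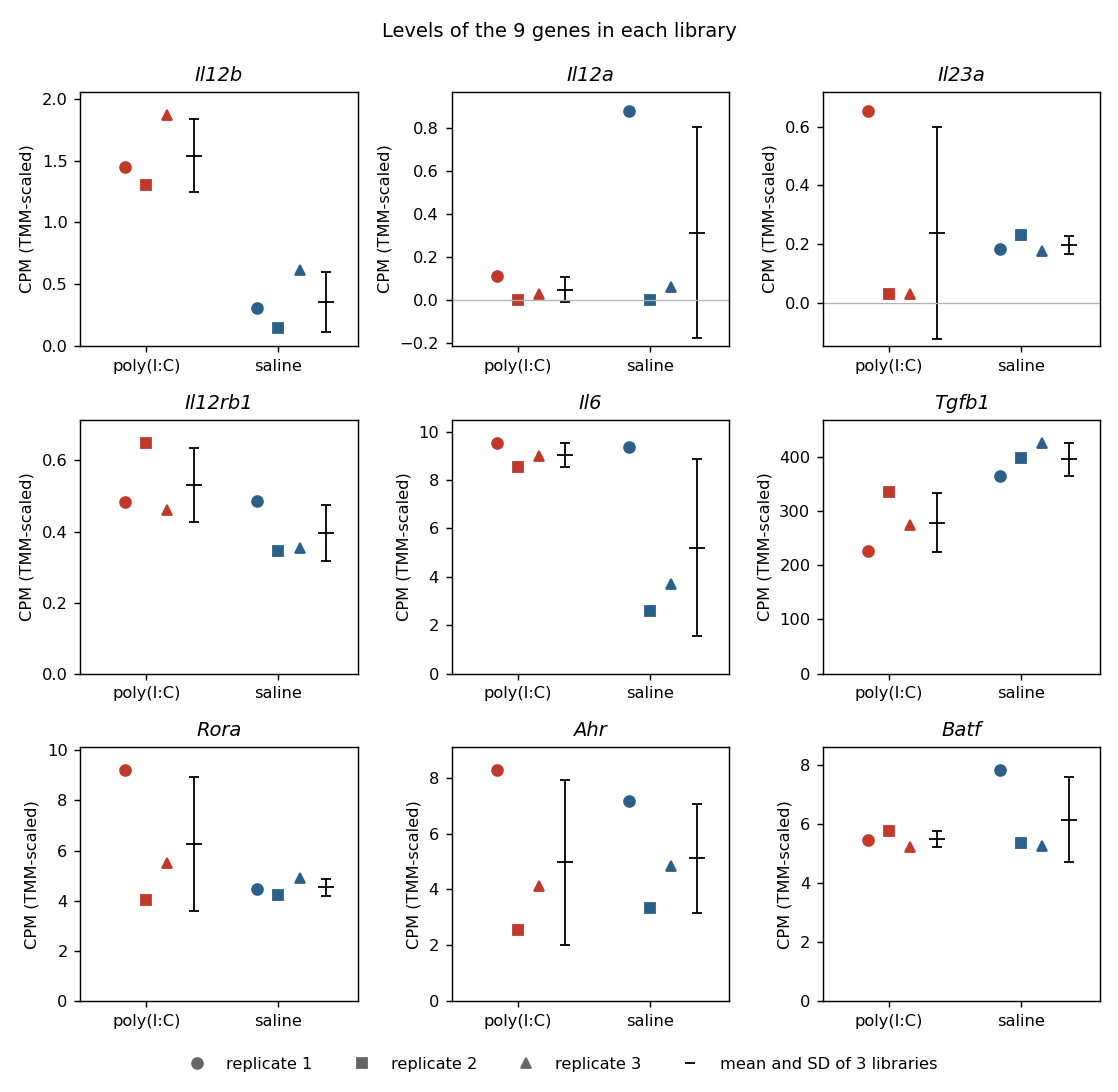
CPM of the 9 genes in each library, poly(I:C) left of saline, with symbols for replicates and a bar for the mean ± SD of 3 libraries. Il12b is higher in all 3 poly(I:C) libraries than in any saline library and Tgfb1 is lower in all 3, while the other 7 genes overlap between groups.

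Il12b, which encodes the chain that IL-12 and IL-23 share, had the largest difference of the tested genes. It had 51, 44 and 65 counts in poly(I:C) replicates 1, 2 and 3, against 10, 5 and 21 counts in saline replicates 1, 2 and 3. Scaled to CPM, the poly(I:C) libraries were at 1.45, 1.30 and 1.87, against 0.304, 0.144 and 0.619 in the saline libraries. Every poly(I:C) library was above every saline library, and the lowest poly(I:C) value had a 95% Poisson interval of 0.945 to 1.75 CPM, against 0.383 to 0.946 CPM for the highest saline value. These intervals cover counting error only. The means were 1.54 ± 0.29 CPM in poly(I:C) and 0.356 ± 0.242 CPM in saline (SD, n = 3 each). This is a 4.30-fold difference, with a log2 difference of 2.10 (SE 0.57), and it did not pass the threshold in edgeR (adjusted p = 0.152). DESeq2 placed it past the threshold at a log2 difference of 2.08 (adjusted p = 0.0269), as did limma-voom with quality weights at 2.33 (adjusted p = 0.0233). With each library left out in turn the log2 difference stayed between 1.73 and 2.76, with edgeR adjusted p between 0.123 and 0.407.

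With replicate 1 of each group left out, the libraries that stood apart in other markers, the log2 difference of Il12b was 2.07 (SE 0.70, edgeR adjusted p = 0.165). The libraries kept still differed in the neutrophil sum, at 449 and 533 CPM in poly(I:C) and 2292 and 2231 CPM in saline. This holds for every fit that leaves out both of these libraries. Of the other cells that can make p40, the 8 dendritic cell markers summed to 29.3, 44.2 and 40.1 CPM in poly(I:C) libraries and to 45.1, 59.1 and 55.7 CPM in saline libraries. Klrd1, Cd209a, Itgae and Zbtb46 carried most of that sum in every library. Clec9a, a gene of conventional dendritic cells in the same list, ran the other way, at 0.938, 0.532 and 0.460 CPM in poly(I:C) libraries and 0.304, 0.173 and 0.0884 CPM in saline libraries, and was higher in every poly(I:C) library, as Il12b was. Xcr1, another gene of these cells, was at or below 0.15 CPM in every library. The part of dendritic cells in the Il12b values was not tested.

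Il12a, the gene of the p35 chain that only IL-12 and not IL-23 contains, was close to absent except in 1 library. It had 4, 0 and 1 counts in poly(I:C) libraries, against 29, 0 and 2 counts in saline libraries. The 29 counts were in saline replicate 1, which also had the highest neutrophil and monocyte marker sums, 19318 and 2019 CPM, and the part these cells play in the value was not tested. The 0 counts in poly(I:C) replicate 2 and saline replicate 2 allow up to 0.0887 and 0.0866 CPM, taken as the CPM of 3 counts in each library, and the upper ends of their 95% Poisson intervals were 0.109 and 0.106 CPM. No test was made in the fit, because the gene was under the filter. In the edgeR fit without a filter the log2 difference was −2.64 (SE 1.64, adjusted p = 0.451).

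Il23a, the gene of the p19 chain of IL-23, was also at a few counts, and again 1 library held most of them. It had 23, 1 and 1 counts in poly(I:C) libraries, against 6, 8 and 6 counts in saline libraries. Poly(I:C) replicate 1 was thus above all saline libraries, and poly(I:C) replicates 2 and 3 were below all of them. The 95% Poisson interval was 0.414 to 0.981 CPM for poly(I:C) replicate 1, 0.000748 to 0.165 CPM for poly(I:C) replicate 2, and 0.0997 to 0.455 CPM for saline replicate 2, the highest saline library. Poly(I:C) replicate 1 also had the highest choroid plexus, endothelial and border-associated macrophage marker sums, 19429, 340 and 1034 CPM. The border-associated macrophage sum was close to that in saline replicates 3 and 1, at 1017 and 944 CPM, with 6 Il23a counts each. The part of these cells in the Il23a value was not tested. In the edgeR fit without a filter its adjusted p was 0.926.

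The 3 subunit genes were set side by side per length of exon, using lengths from GENCODE M21, an annotation of an earlier genome build than the one named for the counts. Per kilobase, poly(I:C) libraries had 0.783 ± 0.150 CPM of Il12b, 0.0279 ± 0.0347 CPM of Il12a and 0.106 ± 0.160 CPM of Il23a. Saline libraries had 0.181 ± 0.123 CPM per kilobase of Il12b, 0.184 ± 0.290 of Il12a and 0.0876 ± 0.0132 of Il23a (SD, n = 3 each). Il12b was the highest of the 3 in every poly(I:C) library, while in saline replicate 1 Il12a was the highest and in saline replicate 2 Il23a was. In saline replicate 2 this order rests on 8 counts of Il23a against 5 of Il12b. Their 95% Poisson intervals overlapped, at 0.0997 to 0.455 and 0.0469 to 0.337 CPM.

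**Figure D3:**
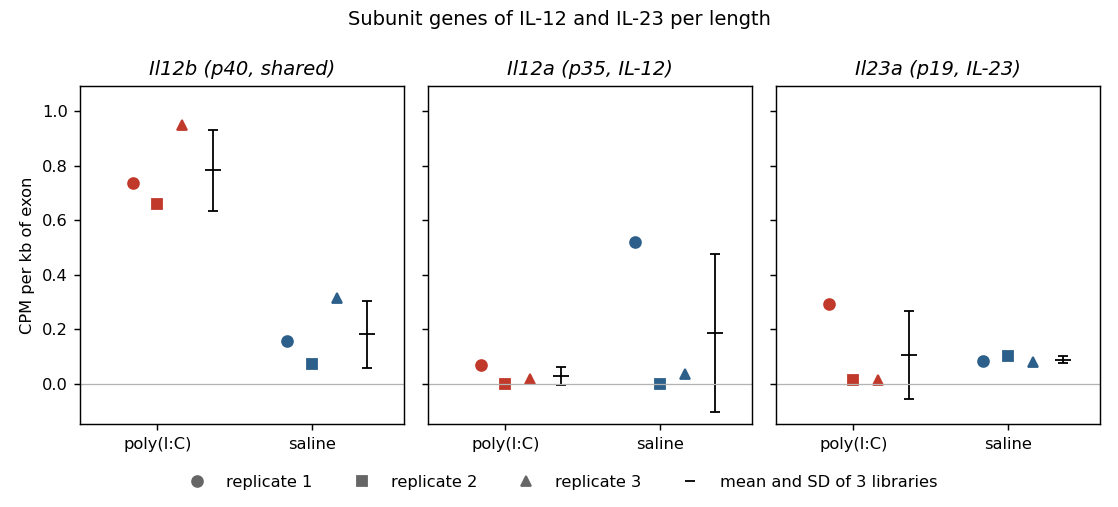
CPM per kilobase of exon for Il12b, Il12a and Il23a in each library, poly(I:C) left of saline, with a bar for the mean ± SD of 3 libraries. Il12b lies between 0.661 and 0.950 in poly(I:C) libraries, and the highest values of Il12a and Il23a each come from 1 library.

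Ratios within a library do not depend on how libraries are scaled. On a log2 scale with 0.5 added to each count, Il12b over Il12a was 3.52, 6.48 and 5.45 in poly(I:C) libraries, against −1.49, 3.46 and 3.10 in saline libraries. The groups did not overlap, with a difference of 3.46, and the exact two-sided permutation p was 0.10, the smallest that 3 against 3 libraries can give. The nearest values were those of poly(I:C) replicate 1 and saline replicate 2. The latter rests on 5 counts of Il12b and 0 of Il12a, so the 0.5 added to each count sets it. With 1 library left out the difference ranged from 1.87 to 4.34. Il12b over Il23a was 1.13, 4.89 and 5.45 in poly(I:C) libraries, against 0.69, −0.63 and 1.73 in saline libraries, with 1 poly(I:C) library inside the saline range (difference 3.23, exact permutation p = 0.20). Il12a over Il23a differed by −0.23 with an exact permutation p of 0.90. With Il6 over Tgfb1, given below, 4 ratios were tested, and none was below 0.267 after adjustment over the 4 exact permutation p-values.

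The receptor gene Il12rb1 was at the edge of detection in all libraries. It had 17, 22 and 16 counts in poly(I:C) libraries, against 16, 12 and 12 counts in saline libraries, which is 0.531 ± 0.104 CPM and 0.396 ± 0.079 CPM (SD, n = 3 each). Poly(I:C) replicates 1 and 3 were below saline replicate 1 in CPM, so the groups overlapped (log2 difference 0.42, SE 0.43, edgeR adjusted p = 0.570). Of the partner chains, Il12rb2, which completes the IL-12 receptor, had 81, 29 and 66 counts in poly(I:C) libraries and 63, 47 and 82 counts in saline libraries. Il23r, which completes the IL-23 receptor, had 0 counts in all 6 libraries.

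Il6, a cytokine of acute inflammation that with TGF-beta starts the IL-17 program in T cells, was even across poly(I:C) libraries and uneven across saline libraries. It had 9.55, 8.54 and 9.00 CPM in poly(I:C) libraries, against 9.37, 2.57 and 3.68 CPM in saline libraries, from 89 to 336 counts each. Saline replicate 1 lay within the poly(I:C) range, and the other saline libraries lay below it. The log2 difference was 0.79 (SE 0.46, edgeR adjusted p = 0.337). Without saline replicate 1 it was 1.52 (SE 0.25, edgeR adjusted p = 0.0491). With replicate 1 of each group left out it was 1.51 (SE 0.26, edgeR adjusted p = 0.0263). Limma-voom, which weights libraries by quality, gave 1.29 (adjusted p = 0.0211), while DESeq2 gave 0.77 (adjusted p = 0.277). Saline replicate 1 was the library with 19318 CPM of neutrophil and 2019 CPM of monocyte markers, and the part of those cells in its Il6 level was not tested.

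Tgfb1, the gene of the TGF-beta form that microglia make most, had by far the most reads of the 9 genes. It had 226, 334 and 273 CPM in poly(I:C) libraries, against 364, 397 and 425 CPM in saline libraries. Each poly(I:C) library was below each saline library, and the nearest libraries were poly(I:C) replicate 2 and saline replicate 1. The log2 difference was −0.51 (SE 0.15), or 1.42-fold lower, and did not pass in edgeR (adjusted p = 0.167). It was at the threshold in DESeq2 (log2 −0.53, adjusted p = 0.0513) and passed in limma-voom with quality weights (log2 −0.56, adjusted p = 0.0122). Poly(I:C) replicate 1, lowest in Tgfb1, was also lowest in microglial markers and highest in choroid plexus markers. Without that library the log2 difference was −0.36 (SE 0.12, edgeR adjusted p = 0.308), and without it and saline replicate 1 it was −0.41 (SE 0.12, edgeR adjusted p = 0.114).

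Il6 and Tgfb1 thus lay in opposite directions. The log2 ratio of Il6 to Tgfb1 counts was −4.56, −5.29 and −4.92 in poly(I:C) libraries, against −5.28, −7.26 and −6.84 in saline libraries. The means differed by 1.54, with an exact permutation p of 0.20, and saline replicate 1 stood just inside the poly(I:C) range.

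Rora, which encodes the nuclear receptor ROR alpha, depended on 1 poly(I:C) library. It had 9.21, 4.02 and 5.52 CPM in poly(I:C) libraries, against 4.47, 4.24 and 4.89 CPM in saline libraries. Poly(I:C) replicate 1 was above all others and poly(I:C) replicate 2 below all others. The log2 difference was 0.46 (SE 0.33, edgeR adjusted p = 0.420) with all libraries and 0.09 (SE 0.25, edgeR adjusted p = 0.885) without poly(I:C) replicate 1. Rora is strongly expressed in Purkinje cells, whose 6 markers summed to 134, 66.9 and 78.4 CPM in poly(I:C) libraries and 48.9, 66.5 and 43.9 CPM in saline libraries, without overlap and highest in poly(I:C) replicate 1. Nearly all of that sum was Itpr1, at 134, 66.7 and 78.2 CPM in poly(I:C) libraries and 48.6, 66.2 and 43.7 CPM in saline libraries. The other 5 markers were under 1 CPM in every library, with Pcp2 and Calb1 at or below 0.06 CPM and Car8 highest in poly(I:C) replicate 1 at 0.313 CPM. The choroid plexus sum of poly(I:C) replicate 1, 19429 CPM, was also the highest of all libraries. The part of either cell type in the Rora value was not tested.

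Ahr, the gene of the aryl hydrocarbon receptor, a ligand-activated transcription factor, varied more within groups than between them. It had 8.27, 2.54 and 4.11 CPM in poly(I:C) libraries, against 7.18, 3.32 and 4.83 CPM in saline libraries. Replicate 1 was the highest library of each group. The log2 difference was −0.04 (SE 0.49, edgeR adjusted p = 0.970), and its sign turned under upper-quartile and total-count scaling and when poly(I:C) replicate 2, poly(I:C) replicate 3 or saline replicate 1 was left out.

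Batf, the gene of a leucine zipper factor that pairs with JUN proteins, was the most even of the 9 in poly(I:C) libraries, at 5.45, 5.76 and 5.23 CPM. In saline libraries it stood at 7.82, 5.37 and 5.25 CPM, so all but saline replicate 1 lay between 5.23 and 5.76 CPM. The log2 difference was −0.16 (SE 0.23, edgeR adjusted p = 0.687), and without saline replicate 1 it was 0.04 (SE 0.22, edgeR adjusted p = 0.931). Saline replicate 1, with the neutrophil sum of 19318 CPM, was thus the highest saline library for Il12a, Il12rb1, Il6, Ahr and Batf.

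**Figure D4:**
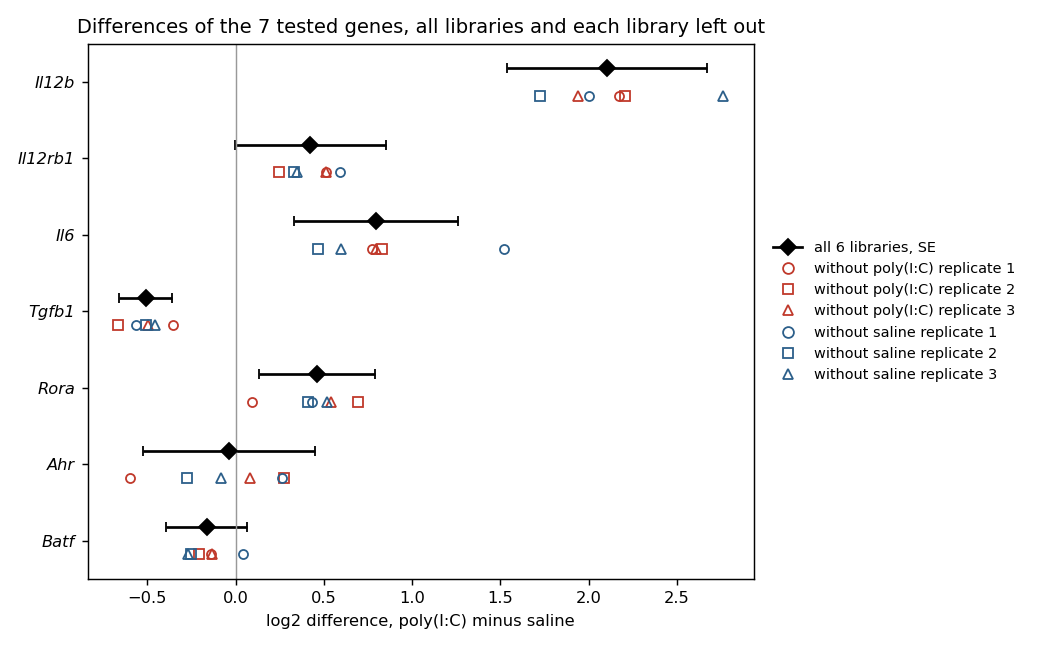
Log2 difference of the 7 tested genes, poly(I:C) minus saline, with all 6 libraries (black, bar is the SE) and with each library left out (open symbols, red for a poly(I:C) and blue for a saline library). Il12b stays between 1.73 and 2.76 and Tgfb1 between −0.67 and −0.36, Il6 moves to 1.52 without saline replicate 1, and Ahr and Batf cross 0.

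Per length, the order of the 9 genes in poly(I:C) libraries ran from Tgfb1 at 55.1 ± 10.7 CPM per kilobase to Il12a at 0.0279 ± 0.0347 (SD, n = 3). Batf at 3.88, 4.10 and 3.72 and Il6 at 3.93, 3.52 and 3.71 CPM per kilobase followed Tgfb1, and their library values overlapped. Ahr at 0.807 ± 0.480 and Il12b at 0.783 ± 0.150 came next and also lay within each other's spread, with Rora at 0.478 ± 0.204 below. In saline libraries Il12b at 0.181 ± 0.123 stood below Ahr at 0.829 ± 0.315 and Rora at 0.347 ± 0.025 CPM per kilobase.

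The genes around these 9 were described by lists chosen for their known roles, but with earlier results of these data known. Of the list genes described here, Lifr passed the test in edgeR. Among genes of IL-12 and IL-23 signal transduction, Stat3, Stat4 and Socs1 did not pass. Stat3, the main transducer of IL-6 and IL-23, had 186 ± 7 CPM in poly(I:C) and 223 ± 12 CPM in saline (SD, n = 3 each; log2 −0.26, edgeR adjusted p = 0.170). Stat4, the main transducer of IL-12, had 27, 12 and 4 counts in poly(I:C) libraries and 121, 41 and 20 counts in saline libraries, of which saline replicate 1 held the most (edgeR adjusted p = 0.232). The feedback inhibitor Socs1 stood at 3.57 ± 0.58 CPM in poly(I:C) and 2.67 ± 0.25 CPM in saline, without overlap (SD, n = 3 each; edgeR adjusted p = 0.351).

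Among 5 tested genes of IL-12 family chains and receptors, 0 were called by edgeR. At an unadjusted p under 0.05 there was 1 gene, against 21.3% of all tested genes. That gene was Ebi3, which encodes a chain related to p40 that is part of IL-27 and IL-35, at 18.5, 31.1 and 23.4 CPM in poly(I:C) libraries, against 44.5, 34.8 and 35.3 CPM in saline libraries. The groups did not overlap, with a log2 difference of −0.65 (SE 0.21, edgeR adjusted p = 0.176). Its partner Il27 was at 5.52 ± 0.44 CPM in poly(I:C) and 5.49 ± 0.52 CPM in saline (log2 0.01, edgeR adjusted p = 0.982). The homologous chains Il12b and Ebi3 therefore had differences of opposite sign, neither of which passed in edgeR.

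Of 9 tested IL-6 family ligands and receptors, 1 was higher and 0 lower in edgeR, against 0.883% and 0.0747% of all tested genes. Lifr, a receptor chain for leukemia inhibitory factor, had 214, 242 and 256 CPM in poly(I:C) libraries, against 166, 148 and 159 CPM in saline libraries. The increase was 1.51-fold (log2 0.59, SE 0.095) and lay at the threshold in edgeR (adjusted p = 0.0499). The adjusted p was 0.277 without poly(I:C) replicate 3 and 0.261 without saline replicate 3, the highest of the fits that left out 1 library. Leaving out poly(I:C) replicate 2 gave 0.0750, and leaving out saline replicate 1 or 2 gave 0.109 and 0.203 in edgeR. The IL-6 receptor chains Il6ra and Il6st had log2 differences of −0.41 (edgeR adjusted p = 0.221) and −0.22 (edgeR adjusted p = 0.295), and the ligand Clcf1 of −0.69 (edgeR adjusted p = 0.195).

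In the TGF-beta list, 0 of 23 tested genes were called by edgeR, and the median log2 difference was −0.02. At an unadjusted p under 0.05 there were 6, against 21.3% of all tested genes. Furin, the protease that cleaves the TGF-beta precursor, had 102, 129 and 111 CPM in poly(I:C) libraries, against 168, 165 and 175 CPM in saline libraries, without overlap (log2 −0.57, SE 0.10, edgeR adjusted p = 0.0724). DESeq2 called it (adjusted p = 0.00259). The receptor genes Tgfbr1 and Tgfbr2 were at log2 differences of −0.08 and −0.02 (edgeR adjusted p = 0.691 and 0.904), and Nrros, which anchors latent TGF-beta 1 on microglia, at −0.06 (edgeR adjusted p = 0.761). Itgb8, an integrin subunit that activates TGF-beta, had 2237, 586 and 705 counts in poly(I:C) libraries, against 293, 556 and 215 counts in saline libraries (log2 1.69, SE 0.58, edgeR adjusted p = 0.191). Its order of libraries within each group was that of the choroid plexus sum, whose part was not tested.

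Ahr partners and targets had 0 of 8 tested genes called by edgeR. An unadjusted p under 0.05 was found for 1, against 21.3% of all tested genes. The classical target Cyp1a1 had 1 count over all 6 libraries. Another target, Cyp1b1, had 86, 3 and 6 counts in poly(I:C) libraries and 2, 11 and 2 counts in saline libraries. The 86 counts were in poly(I:C) replicate 1, the highest library for Ahr itself. The 11 counts were in saline replicate 2, the lowest saline library for Ahr. These libraries had the highest choroid plexus sums of their groups, 19429 and 8450 CPM, whose part was not tested. Tiparp, a target and feedback inhibitor of Ahr, was at 29.3 ± 10.2 CPM in poly(I:C) and 22.6 ± 5.3 CPM in saline (SD, n = 3 each; edgeR adjusted p = 0.451).

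Batf partners and relatives had 0 of 9 tested genes called by edgeR. An unadjusted p under 0.05 was found for 2, against 21.3% of all tested genes. Jund, a JUN family partner, was at 248 ± 37 CPM in poly(I:C) and 375 ± 28 CPM in saline (log2 −0.60, SE 0.13, edgeR adjusted p = 0.111). Batf2, a relative induced by interferons in macrophages, had 6.59, 3.75 and 3.97 CPM in poly(I:C) libraries, against 2.19, 1.47 and 3.04 CPM in saline libraries (log2 1.09, SE 0.38, edgeR adjusted p = 0.191). Batf3 had a log2 difference of 0.00 (edgeR adjusted p = 0.994). Of the ROR family and other IL-17 program factors, 0 of 7 tested were called by edgeR. Maf was the 1 gene at an unadjusted p under 0.05, against 21.3% of all tested genes (log2 −0.37, edgeR adjusted p = 0.190). Rorb had no more than 4 counts in any library.

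The 10 NF-kB, IRF and related factors that act on Il12b, Il23a and Il6 all had an unadjusted p under 0.05. Over all tested genes this share was 21.3%. Of the 10, 0 were called by edgeR, against 0.957% of all tested genes. The library values of 9 did not overlap between groups, against 28.4% of all tested genes. Of these, 2 were higher and 7 lower with poly(I:C), against 14.0% and 14.3% of all tested genes. The median log2 difference of the list was −0.33, against 0.01 over all tested genes. The 2 higher genes were Irf1, at 156, 131 and 128 CPM in poly(I:C) libraries against 102, 84.5 and 104 CPM in saline libraries, and Rel. Irf1 had a log2 difference of 0.52 (SE 0.12, edgeR adjusted p = 0.121) and Rel, the NF-kB subunit most tied to Il12b transcription, of 0.36 (SE 0.11, edgeR adjusted p = 0.169). Among those that stood lower, Cebpb had 111, 148 and 119 CPM in poly(I:C) libraries, against 286, 164 and 242 CPM in saline libraries (log2 −0.88, SE 0.21, edgeR adjusted p = 0.131). Spi1, the gene of the myeloid factor PU.1, had a log2 difference of −0.60 (SE 0.15, edgeR adjusted p = 0.130) and Rela of −0.43 (SE 0.11, edgeR adjusted p = 0.140). DESeq2 called Cebpb, Spi1, Rela and Irf1, with adjusted p of 0.00398, 0.0135, 0.0471 and 0.0215. Cebpb also marks neutrophils and monocytes, whose marker sums were highest in the same saline library as Cebpb. The other libraries did not keep this order. Saline replicates 2 and 3, at 164 and 242 CPM of Cebpb, had neutrophil sums of 2292 and 2231 CPM. Poly(I:C) replicate 1, lowest in Cebpb, had the highest neutrophil sum of its group, 2133 CPM. The part of these cells was not tested.

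**Figure D5:**
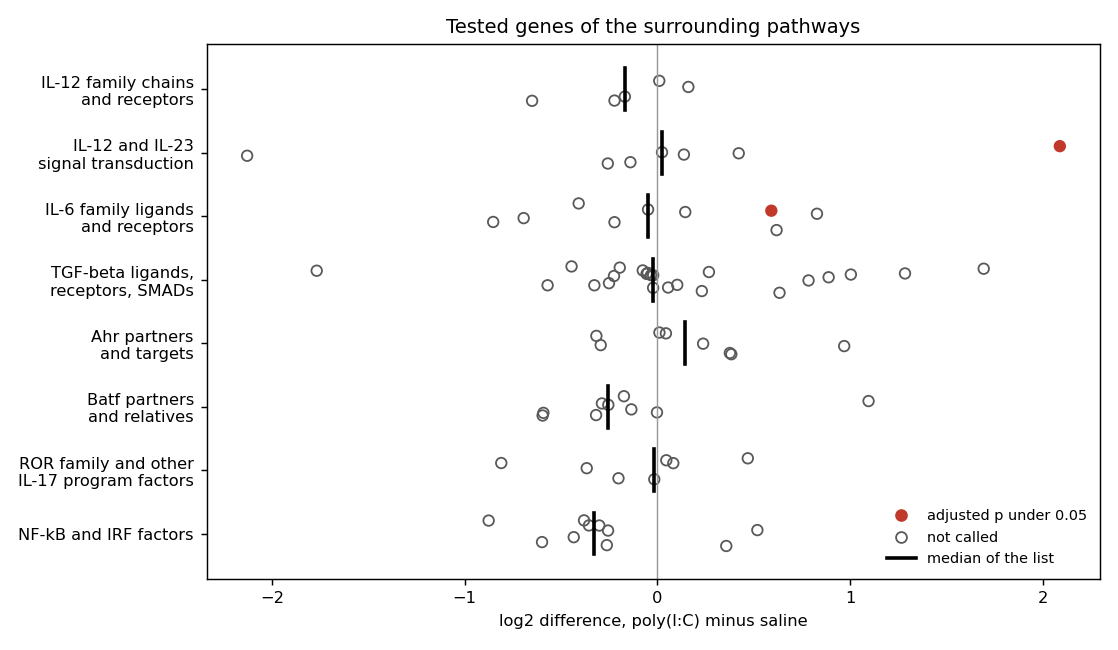
Log2 difference, poly(I:C) minus saline, of every tested gene in the 8 lists, with a black line at each list's median and filled points for adjusted p under 0.05 in edgeR. Lifr is a filled point in the IL-6 family list, and 8 of the 10 NF-kB and IRF factors lie below 0.

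Among 10347 tested genes averaging at least 5 CPM, those whose log2 CPM followed a member most closely over the 6 libraries were listed as a description. For Il12b they were Trnt1, Pvt1 and Xlr3b, with Pearson correlations of 0.994, 0.993 and 0.993. For Tgfb1 they were Setd1b, Eefsec and Ttyh3, each at 0.999 or above, but 1462 genes reached 0.9 with Tgfb1, against 317 with Il12b. For Il6 they were Tmem9b, Fignl1 and Gmds, from 0.990 to 0.993. For Rora they were Pcm1, Ptges3-ps and Lactb2, and for Ahr Pde4b, Ier3 and Ormdl1. For Batf they included Pgd and Angptl7, and for Il12rb1 Mrpl41, Psmb10 and Sec22a. All points share the same 6 libraries, so these correlations also carry each library's makeup.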

How the data were processed

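The authors deposited a table of unscaled counts of reads, with a row for each gene symbol and a column for each library. The submitters' processing notes name build GRCm39 and the tools fastp, HISAT2 and HTSeq, per the labels, while their versions, settings and strand option were not given in the sources used here. Per the labels' protocols, cells were enriched with CD11b beads after Percoll, and libraries came from amplified full-length cDNA by Nextera XT, which does not mark strand. Without molecular identifiers in the labels, counts are of reads, and reads of overlapping antisense genes cannot be told apart.

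The main test was edgeR 4.0.16 (R 4.3.3; TMM scaling, filterByExpr by group, glmQLFit and glmQLFTest over all 6 libraries, no covariate, Benjamini-Hochberg adjustment over 14727 genes). SE is the absolute log2 difference over the square root of F. Ratios were tested by exact permutation in scipy 1.17.1. Alternatives used other scalings and filters, DESeq2 1.42.0, limma-voom 3.58.1 with quality weights, a replicate block, and libraries left out. Scripts were checked on simulated data. Replicates of a group differed by a chi-square per gene of 22.2 to 124, so none was a duplicate. Exon lengths came from GENCODE M21 and promoters from RefSeq, both of GRCm38. The members and lists were chosen with earlier results of these data known. Named genes were all members, called list genes, up to 4 per list with the smallest p, and the 3 genes most like each member. Other list genes, the marker genes and Fmr1 were named after their values were seen. Of the listed genes, Cyp1a2, Fcrls, Trac and Gabra6 had no row here and were not analysed. Some genes the rule would name are not reported here.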

Additional observations from a re-analysis of the deposited data

How the results depend on the processing

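With edgeR and all libraries 0 members, 130 higher and 11 lower genes were called. The number of members called was 1 in DESeq2 (Il12b), 3 in limma-voom (Il12b, Il6 and Tgfb1), between 0 and 1 with 1 library left out (Il6 without saline replicate 1), and 1 with replicate 1 of each group left out (Il6). Genes called higher and lower numbered 557 and 448 in DESeq2, 1268 and 1608 in limma-voom, and 355 and 214 without those 2 libraries, and leaving out 1 library gave between 51 and 167 higher and between 0 and 20 lower. There were 18 lower genes with no filter. Il12b had log2 differences of 2.08 (DESeq2) and 2.33 (limma-voom), Tgfb1 of −0.56 (limma-voom), and Il6 of 1.29 (limma-voom), 1.52 without saline replicate 1 and 1.51 without both libraries. Ahr turned to 0.019 with upper-quartile and 0.055 with total-count scaling, and spanned −0.60 to 0.27 with 1 library left out. Batf turned to 0.04 without saline replicate 1 and 0.075 without both libraries, and spanned −0.27 to 0.04. The ratio of Il12a to Il23a spanned −1.73 to 1.41. Il12b, Il12rb1, Il6, Rora and Tgfb1 kept their sign in every alternative that tested them.

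No label says whether the same replicate number pairs 2 libraries. Same-numbered deviations from the group mean correlated at 0.15, −0.09 and 0.25, and differently numbered ones between −0.43 and 0.37. With 3 libraries per group these values cannot decide whether libraries were paired. With a replicate block 0 members were called, and 171 higher and 89 lower genes. Among other named genes signs turned for Il12rb2 (0.14 without poly(I:C) replicate 2, 0.04 without saline replicate 3, range −0.44 to 0.14), Il27ra (−0.21 in limma-voom, −0.12 without poly(I:C) replicate 1, −0.097 without both libraries, range to 0.35), Ikzf3 (0.47 without saline replicate 1, range from −1.31) and Nr1d1 (0.041 without saline replicate 2, range from −0.45). The cause was not tested. Under 30 counts per library, as for Il12a, Il23a and Il12rb1, small differences were not detectable.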
